A study of Mus musculus with 75 samples.

Results

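A single late injection of leptin was compared with saline in fasted mice, in hypothalamic nuclei that carry the long leptin receptor LepRb, by open chromatin (ATAC-seq) and by H3K27ac ChIP-seq. The comparison rests on 8 of the 75 samples of the series: for each assay, replicates 1 and 2 of the FasSSL group and replicates 1 and 2 of the FasSSS group, sorted as GFP-positive (GFPp). They were chosen by their labelled treatment, sort and assay, and the regions by a mean normalized signal of 10 or more. All mice were LepRcre/+; SUN1-sfGFP/+, so that Cre made at the leptin receptor gene switches on a GFP tag of the nuclear envelope, and hypothalami were pooled before sorting. FasSSS mice were fasted for 36 h with saline at 12, 24 and 34 h of the fast. FasSSL mice were fasted for 36 h with leptin at 5 mg/kg at 34 h, which the labels also give as 2 h of leptin, and the protocol names no earlier injection for them. For reference, FasLLL mice were fasted with leptin at 12, 24 and 34 h, FedSSS mice ate freely, and every group also had GFP-negative (GFPn) nuclei, the rest of the hypothalamus. The labels do not give the age or the number of animals per pool, nor whether replicates came from separate pools, and a p-value here sets a difference against the spread of these libraries, which may be technical.

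Fat tissue secretes the hormone leptin, whose blood level drops when food is withheld, and LepRb is the receptor form that signals through the kinase JAK2 and the transcription factor STAT3. In the hypothalamus, neurons with LepRb include those that lower and those that raise food intake, and STAT3 acts by binding regulatory DNA. ATAC-seq marks DNA open to a transposase, as at promoters and enhancers, and H3K27ac is an acetylated histone found at active ones. In a bulk sample of sorted nuclei, a change in a few nuclei and a smaller change in all of them cannot be told apart.

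The deposited tables held 48634 ATAC and 126368 H3K27ac regions, of which 31358 and 98529 passed the signal minimum and were tested. The authors' values are normalized signal rather than counts, so read depth is unknown. The number of distinct values below 20 shows how coarsely a library was sampled. In ATAC it was 23 and 11 in FasSSL replicates 1 and 2, and 17 and 9 in FasSSS replicates 1 and 2. FasSSS replicate 2 listed 7.31% of all regions at 0, and 0.523% of those tested. For FasSSL replicate 2 the share of tested regions at 0 was 0.169%. Across regions, log2 signal correlated (Pearson) at 0.856 between the FasSSL and 0.822 between the FasSSS replicates of ATAC, and 0.821 to 0.908 across treatments, a range that takes in both within-treatment values. In H3K27ac, the FasSSS replicates correlated at 0.972 and FasSSL replicate 2 with them at 0.967 and 0.975. FasSSL replicate 1 stood apart, at 0.867 to 0.883 with the other 3. Median log2 signal differed between the densest and the sparsest 10% of regions by 2.64 in that library, against 4.10 in FasSSL replicate 2 and 4.08 and 3.90 in the FasSSS replicates. It belongs to a set of 6 such libraries, replicate 1 of FedSSS, FasSSL and FasLLL in both sorts, with 2.27 to 2.94 against 3.78 to 4.10 in the other 10. H3K27ac results are therefore given with both FasSSL replicates and with replicate 2 alone.

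The labelled sort was checked at regions that the compared libraries did not choose, the 500 regions higher and the 500 lower in GFPp in the FedSSS and FasLLL libraries. In ATAC, the median log2 difference between GFPp and GFPn at the higher regions was 0.81 and 0.71 in FasSSL replicates 1 and 2 and 0.66 and 0.58 in the FasSSS replicates. At the lower regions it was −0.96 and −1.01 in FasSSL and −0.71 and −0.95 in FasSSS. All of these libraries kept the direction of the sort. In H3K27ac, FasSSL replicate 2 and the FasSSS replicates had 0.75, 0.78 and 0.70 at the higher regions, and −1.81, −1.98 and −1.64 at the lower ones. FasSSL replicate 1 had the same signs with 0.36 and −0.42. The files name no genes and are of build mm9, for which no annotation was used here, so each region is identified by its coordinates without a gene or a place within one, and no neuronal or glial marker was read.

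The first question was which regions open or close in LepRb nuclei within hours of leptin. No ATAC region was called in either direction at a limma adjusted p under 0.05 (0 of 31358 regions, 0%). An unadjusted p under 0.05 was reached by 2103 (6.71%), 1132 higher and 971 lower after leptin, and 1482 to 3885 when each library was left out. Without FasSSL replicate 1 or 2 the balance turned, to 1293 higher and 1879 lower, and to 720 higher and 762 lower. With all libraries the smallest adjusted p was 0.105. The median log2 change over all regions was −0.005 and its SD across regions 0.42. In 4576 regions (14.6%) both FasSSL libraries lay above both FasSSS libraries, and in 4701 (15%) both lay below. The difference between treatments was not larger than the replicates' spread: its root mean square was 0.54, 0.48, 0.36 and 0.24 log2 units in 4 equal bins of regions from the weakest to the strongest signal, and the spread between replicates, taken as independent libraries, predicted 0.58, 0.51, 0.39 and 0.28. The 95% confidence interval of a region's change had a median half-width of 0.72 log2 units. It lay within ±1 log2 unit for 53.85% of regions, and for 95.2% of the strongest bin. For those regions a change of 2-fold or more in signal + 1, the value taken to log2, lies outside the interval. In weak regions a 2-fold change of the signal itself is less than 1 log2 unit on this scale. The absence of calls depended on single libraries: without FasSSS replicate 1, 331 regions were called (311 higher), and without FasSSL replicate 1, 112 (11 higher). Without FasSSS replicate 2 there were 2 and without FasSSL replicate 2 there were 0. In each of these fits 1 group is a lone library that is assumed to vary like the other groups.

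**Figure D1:**
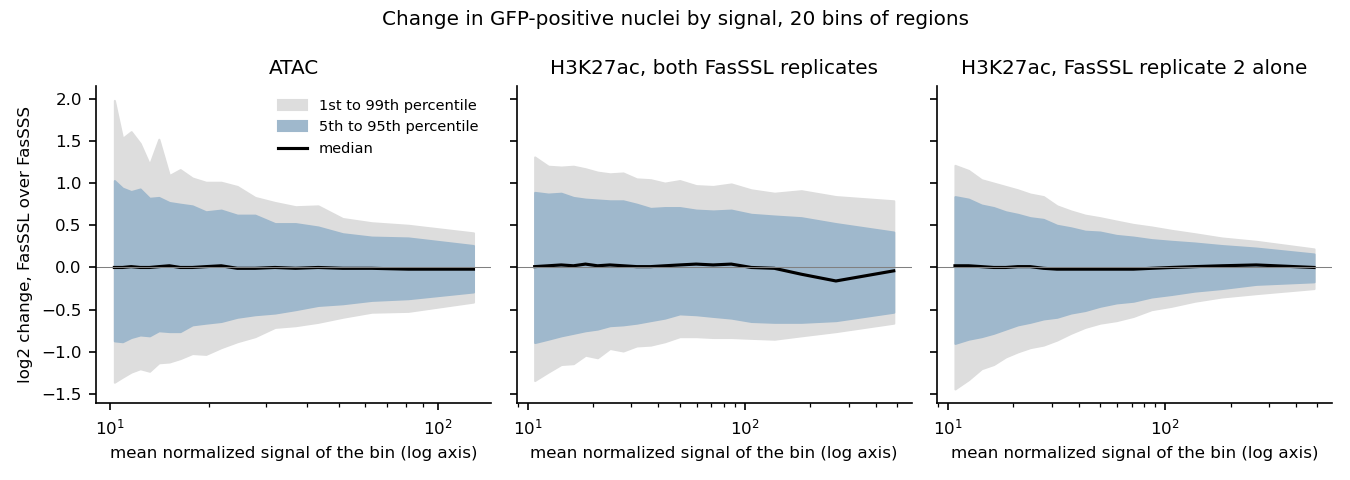
Log2 change from FasSSS to FasSSL in GFP-positive nuclei (vertical axis) in 20 bins of regions by mean normalized signal (horizontal, log axis), for ATAC, for H3K27ac with both FasSSL replicates and for H3K27ac with FasSSL replicate 2 alone. The line is the median and the bands span the 5th to 95th and the 1st to 99th percentile. The ATAC median stays near 0 while the bands narrow with signal, and the H3K27ac bands are narrower at high signal with replicate 2 alone.

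The 16 ATAC regions nearest to a call, 8 in each direction, had log2 changes of 1.29 to 3.48 and −2.54 to −0.88, and none passed the test. In 8 of the 16 at least 1 compared library was listed at 0. On chromosome 9 (63638970 to 63639976, 1007 bp), signal was 28.3 and 25.7 in the FasSSL replicates and 8.7 and 0 in the FasSSS replicates. Both leptin libraries were high, and the larger part of the log2 change of 3.17 (SE 0.57, limma adjusted p = 0.105) came from the FasSSS library listed at 0. FedSSS libraries had 14.3 and 16.7 there, between the 2 treatments. A 450 bp region on chromosome 6 (85806164 to 85806613) had 6.1 and 6.3 after leptin and was listed at 0 in both FasSSS libraries. Its GFPn libraries had 17.0 to 25.4, so that signal was higher outside the LepRb sort. It was also the 1 region called in FasLLL against the same FasSSS libraries (0.00319% of regions, limma adjusted p = 0.0407), with 4.6 and 14.5 in FasLLL. A region on chromosome 5 (27929929 to 27930570, 642 bp) had 24.0 and 36.3 after leptin and 6.5 and 0 without it. The groups did not overlap, and FasLLL (11.9 and 13.1) and FedSSS (15.2 and 4.0) lay mostly between them. The log2 change was 3.48 (SE 0.65, limma adjusted p = 0.105), with a 95% interval of 2.15 to 4.80.

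On chromosome 1 (166161959 to 166162738), values were 10.4 and 16.9 after leptin and 3.2 and 0 in FasSSS. On chromosome 11 (81348148 to 81349004) they were 14.6 and 22.2 against 4.3 and 3.7, and the FasSSS replicates differed little from each other. The 548 bp region on chromosome 3 (150339760 to 150340307) had 3.6 and 4.6 against 2 libraries listed at 0. These levels are close to the lowest value above 0 that a library can hold, which was 1.9 to 3.7 in the 4 libraries. On chromosome 8 (35535562 to 35537138, 1577 bp), signal was 29.2 and 43.3 after leptin against 11 and 10.7, with FasLLL at 21.0 and 17.1 and FedSSS at 26.4 and 20.9. This was among the better sampled regions of the list, with a log2 change of 1.63 (SE 0.35, limma adjusted p = 0.283). On chromosome 14 (22560962 to 22562808, 1847 bp) it was 36.0 and 46.8 against 13.2 and 19.7, with FedSSS (22.7 and 27.8), FasLLL (27.4 and 25.1) and the GFPn libraries (23.2 to 28.4) all between the 2 treatments. FasSSS replicate 2 was at 0 in 5 of these 8 regions, against 0.523% of all regions tested.

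**Figure D2:**
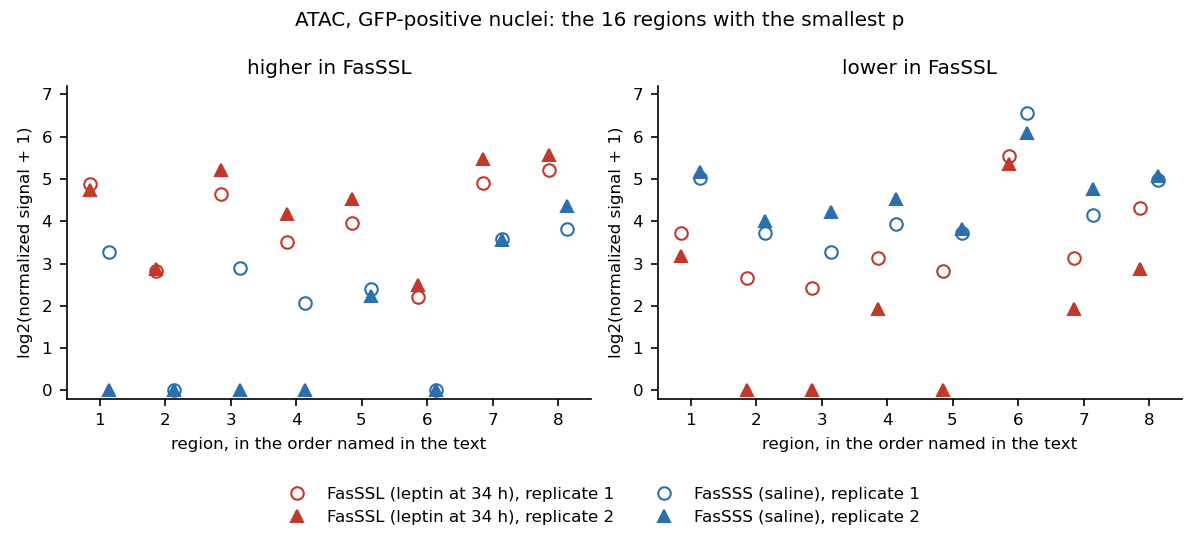
ATAC log2(normalized signal + 1) in GFP-positive FasSSL (red) and FasSSS (blue) libraries, open circles for replicate 1 and filled triangles for replicate 2, at the 8 regions higher (left) and the 8 lower (right) after leptin with the smallest p among regions whose groups do not overlap. Values at 0 are FasSSS libraries in 5 of the 8 higher regions and FasSSL replicate 2 in 3 of the 8 lower ones.

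Lower signal after leptin was measured on chromosome 16 (22544916 to 22546056, 1141 bp), with 12.1 and 8.1 against 31.4 and 35.0 in FasSSS. Both replicates of each treatment were close, and FasLLL (26.2 and 27.7), FedSSS (23.6 and 19.5) and GFPn libraries (14.7 to 19.8) lay above the single-leptin values. Its log2 change was −1.65 (SE 0.33, limma adjusted p = 0.150). On chromosome 2 (124034045 to 124034635), signal was 5.3 and 0 against 12.1 and 15.2, and on chromosome 14 (45669485 to 45670073) 4.4 and 0 against 8.7 and 17.5. A second region of chromosome 2 (79368745 to 79369753) had 7.8 and 2.8 against 14.3 and 21.9. On chromosome 15 (88680596 to 88681406) the values were 6.1 and 0 against 12.1 and 13.0, while GFPn libraries had 25.1 to 49.8. All 5 of these regions were low in FasSSL replicate 2 most of all. The best covered of the 8, on chromosome 6 (40384831 to 40386658, 1828 bp), had 45.4 and 39.8 against 93.8 and 66.9. Its log2 change was −0.88 (95% interval −1.34 to −0.43, limma adjusted p = 0.559), and the other GFPp groups lay between, at 49.8 to 61.8. On chromosome 7 (82786834 to 82787637), the values were 7.8 and 2.8 against 16.6 and 26.3, and on chromosome 3 (90250278 to 90251408) 18.9 and 6.3 against 30.3 and 32.9. In all 8 lower regions FasSSL replicate 2 was the lower of the 2 leptin libraries, and in 7 of the 8 higher ones it was the higher. The same count over all regions is not given here, so this only describes the list.

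Among regions with a mean signal of 50 or more, 3 had the smallest p in each direction. Higher after leptin was a region on chromosome 7 (132634401 to 132636186), with 89.1 and 90.8 against 60.1 and 37.2. A region on chromosome 19 (31156789 to 31158990) had 67.7 and 90.8 against 53.2 and 39.3, and one on chromosome 17 (15532680 to 15533733) 56.5 and 55.6 against 36.0 and 30.7. At these stronger regions no library was near 0 and the log2 changes were 0.74 to 0.91, with 95% intervals that together span 0.30 to 1.41 (limma adjusted p = 0.559 for each). These intervals, and those of the other named regions, take no account of the choice by a small p, which favours large changes and intervals that leave out 0. Lower, beside the chromosome 6 region above, were regions on chromosome 5 (121054484 to 121057268) with 56.5 and 27.5 against 76.3 and 69.0, and on chromosome 11 (32104962 to 32105684) with 35.2 and 38.0 against 54.4 and 73.2.

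GFP-negative nuclei of the same treatments were compared to ask whether the change differed between the sorts. In GFPn, 0 of 31358 ATAC regions were called (0%) and 421 (1.34%) had an unadjusted p under 0.05 with limma. That share and the one in GFPp use 1 spread shared by all libraries, while the compared GFPp libraries were sampled more coarsely. Distinct values below 20 numbered 40 and 17 in FasSSL and 25 and 19 in FasSSS GFPn libraries. In GFPp they numbered 23 and 11, and 17 and 9. With only the groups compared in the fit, the GFPp count fell from 2103 to 1046, and with library weights to 1083. The 2 shares are thus not compared like for like. The difference between the change in GFPp and that in GFPn was called at 0 regions (0%), with 1126 (3.59%) at an unadjusted p under 0.05 and a smallest limma adjusted p of 1.00. Without FasSSS GFPp replicate 1 the difference was called at 148 regions, and without FasSSL GFPp replicate 1 at 27. At the chromosome 9 region, GFPn libraries had 16.1 and 18.8 after leptin against 15.4 and 11.9, and at the chromosome 16 region 18.0 and 17.7 against 14.7 and 19.8. All 16 named regions had an unadjusted p under 0.05 for the difference between sorts, but they were chosen by their change in GFPp, so this is a description.

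At the regions that set the sorts apart, leptin libraries were examined for a shift over many regions. At the 500 ATAC regions higher in GFPp, median signal was 23.2 and 22.2 in the FasSSL replicates and 21.1 and 19.7 in the FasSSS replicates. Both leptin libraries lay above both FasSSS libraries. FedSSS (22.7 and 23.7) and FasLLL (25.5 and 21.75) libraries did too, but the regions were chosen for being high in them. The median log2 change after leptin was 0.10, against 0 over all regions tested, and 54 regions were higher and 10 lower at an unadjusted p under 0.05 (12.8%, against 6.71% of all). Choosing sort regions by a small p favours those with little spread between FedSSS and FasLLL replicates. That spread enters the test used here, so part of a larger share of small p may be built in. In 27.8% both leptin libraries lay above both FasSSS libraries, against 14.6% of all regions. None was called. Leaving out 1 library at a time, the median was 0.08 to 0.16. The higher and lower counts were then 49 and 25 without FasSSL replicate 1, 29 and 9 without FasSSL replicate 2, 68 and 14 without FasSSS replicate 1 and 33 and 14 without FasSSS replicate 2. At the 500 regions lower in GFPp the share at an unadjusted p under 0.05 was as large, 13%, with 31 higher and 34 lower, so the excess over all regions was not particular to the higher set. Both leptin libraries lay below both FasSSS libraries in 20% of them, against 15% of all. Their median change was 0.04, and 0.07, −0.08, −0.05 and −0.03 without FasSSL replicate 1 or 2 or FasSSS replicate 1 or 2. Both sets are regions of low signal, and their GFPp to GFPn contrast was also larger in the FasSSL libraries (above). At the lower regions the median change after leptin was 0.13 in GFPn, more than the 0.04 in GFPp, so the larger contrast there came with a rise in GFPn. At the higher regions the GFPn change was 0.01. The part of the sort's purity in the change at either set was not tested.

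**Figure D3:**
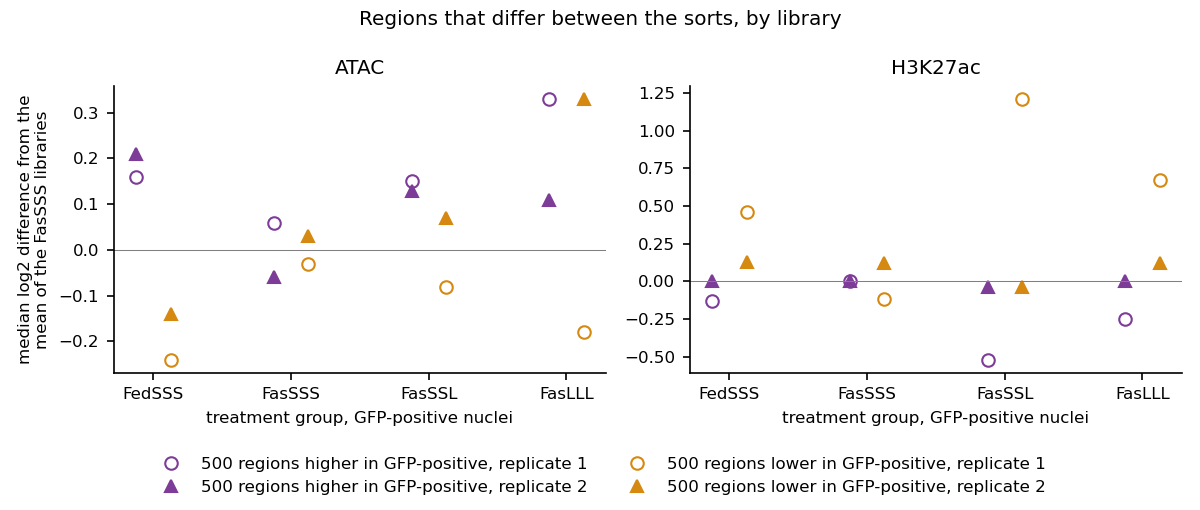
Median log2 difference from the mean of the FasSSS libraries in each GFP-positive library, at the 500 regions higher (purple) and the 500 lower (orange) in GFP-positive than in GFP-negative nuclei of FedSSS and FasLLL mice, for ATAC (left) and H3K27ac (right, wider axis). In ATAC the FasSSL libraries sit at 0.15 and 0.13 at the higher regions. In H3K27ac FasSSL replicate 1 sits at −0.52 and 1.21 and replicate 2 at −0.04 in both sets.

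H3K27ac was compared in the same way, for gain or loss of the mark within hours of leptin. With both FasSSL replicates, 0 of 98529 regions were called (0%), and 2932 (2.98%) had an unadjusted p under 0.05, of which 1781 were higher and 1151 lower. That count rested on single libraries: without FasSSL replicate 1 it was 932, 262 higher and 670 lower, and without FasSSL replicate 2 it was 15607, 8939 higher and 6668 lower. Without FasSSS replicate 1 or 2, 1186 and 1030 were higher and 508 and 354 lower. The smallest limma adjusted p was 0.912. Both leptin libraries lay above both FasSSS libraries in 15469 regions (15.7%) and below in 15002 (15.2%). In 29223 regions FasSSL replicate 1 lay beyond the FasSSS libraries on one side and replicate 2 on the other. The root mean square of the difference between the FasSSL replicates, per library, was 0.53 to 0.60 log2 units over the 4 bins of signal, against 0.13 to 0.38 between the FasSSS replicates. The median half-width of the 95% interval was 0.82 log2 units. The difference between the change in GFPp and in GFPn was called at 0 regions (0%), with 2106 (2.14%) at an unadjusted p under 0.05 and a smallest limma adjusted p of 1. In GFPn, 0 regions were called (0%) and 4344 (4.41%) had an unadjusted p under 0.05, and there too FasSSL replicate 1 is of the weakly enriched set.

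The 16 H3K27ac regions with the smallest p were all short, 696 to 2171 bp, and none passed the test. On chromosome 1 (128384712 to 128386138), signal was 26.4 and 23.3 after leptin against 6.1 and 6.9 in FasSSS. Replicates of each treatment were close, FasLLL (19.3 and 17.3) and FedSSS (14.3 and 10.9) lay between, and the GFPn libraries had 13.0 to 17.1. The log2 change was 1.78 (SE 0.35, limma adjusted p = 0.912) and 1.70 with replicate 2 alone. On chromosome 10 (82089691 to 82091716), the values were 33.7 and 22.4 against 7.7 and 8.2, on chromosome 12 (32599373 to 32600350) 24.6 and 13.6 against 3.5 and 4.3, and on chromosome 13 (40981104 to 40981845) 21.1 and 13.6 against 5.2 and 4.3. The chromosome 13 region, with a mean of 10.38, passed the signal minimum of 10 only through the GFPp FasSSL libraries. A 1162 bp region on chromosome 18 had 12.6 and 14.6 against 0 and 4.3. This region also stood among the 8 higher ones with replicate 2 alone, the 1 region that both lists share. Signal was 39.2 and 16.6 against 9.3 and 5.6 on chromosome 6 (83806506 to 83808036), where GFPn libraries had 28.3 to 50.2. It was 26.4 and 17.6 against 10.1 and 5.6 on chromosome 4 (95301533 to 95303400), and 30.0 and 19.5 against 10.1 and 5.6 on chromosome 16 (89495529 to 89497621). The weakly enriched FasSSL replicate 1 was the higher leptin library in 7 of these 8 regions.

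**Figure D4:**
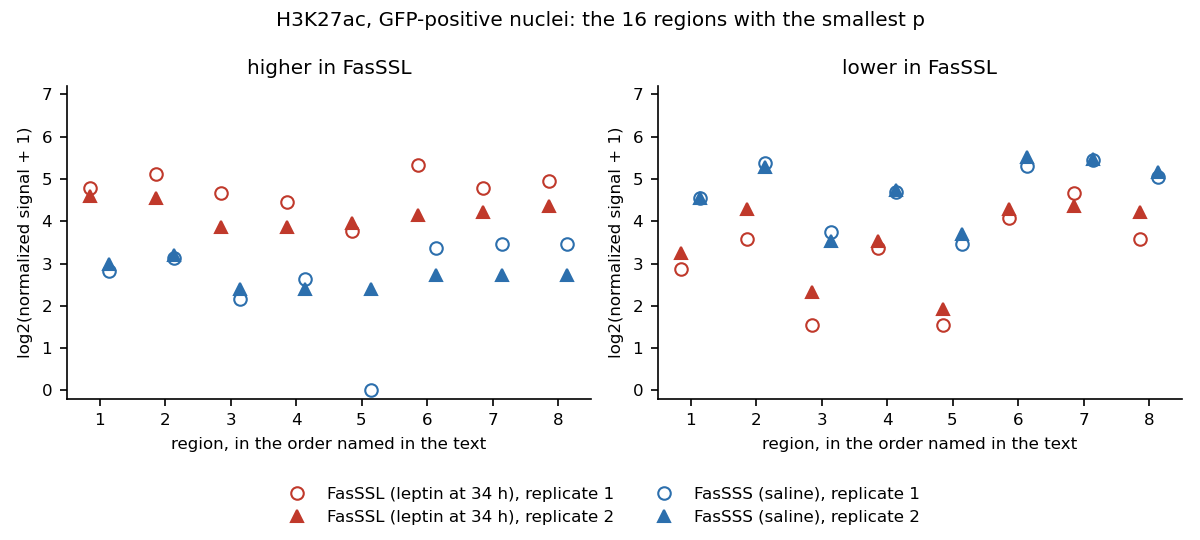
H3K27ac log2(normalized signal + 1) in GFP-positive FasSSL (red) and FasSSS (blue) libraries, open circles for replicate 1 and filled triangles for replicate 2, at the 8 regions higher (left) and the 8 lower (right) after leptin with the smallest p among regions whose groups do not overlap. FasSSL replicate 1 lies farther from the FasSSS libraries than replicate 2 in 7 regions of each panel.

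Lower H3K27ac after leptin was measured on chromosome 1 (68095031 to 68096738), with 6.3 and 8.5 against 22.6 and 22.5. The FasSSS replicates were nearly equal there, FasLLL (11.7 and 16.3) and FedSSS (16.2 and 17.6) lay between, and the log2 change was −1.50 (SE 0.32, limma adjusted p = 0.912). On chromosome 3 (40985995 to 40987278), the values were 11 and 18.6 against 40.8 and 38.1, and FasLLL (15.1 and 14.3) and FedSSS (19.3 and 17.6) were as low as after a single injection. At this place both FasSSS libraries stood above all other GFPp libraries, and GFPn libraries had 13.8 and 18.9 after leptin against 28.1 and 33.5, the same direction as in GFPp. On chromosome 2 (161891596 to 161892501) the values were 1.9 and 4.0 against 12.4 and 10.6, on chromosome 6 (135797464 to 135799322) 9.4 and 10.6 against 24.7 and 25.9, and on chromosome 14 (26493458 to 26494153) 1.9 and 2.8 against 10.1 and 11.9. A second region of chromosome 2 (20894347 to 20896517) had 16 and 18.6 against 38.8 and 44.6. The last 2 were on chromosome 12 (75462797 to 75464793), with 24.6 and 19.5 against 42.7 and 43.5, and on chromosome 6 (94213412 to 94215211), with 11 and 17.6 against 32.2 and 34.8. In the first of these, FasLLL (35.2 and 35.7) and FedSSS (51.3 and 38.8) lay above the single-leptin values. With replicate 2 alone the log2 changes were −1.65 to −0.89 at the 8 lower regions and 1.09 to 2.76 at the 8 higher ones, with signs that the choice of regions whose libraries do not overlap fixes. None was called in that fit either (limma adjusted p 0.592 to 0.961).

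With FasSSL replicate 2 alone against both FasSSS libraries, 15 of 98529 regions were called (0.0152%), all lower after leptin. An unadjusted p under 0.05 was reached by 5018 (5.09%), 2212 higher and 2806 lower, a balance opposite to that with both replicates. FasSSL replicate 2 lay above both FasSSS libraries in 32926 regions (33.4%) and below both in 33787 (34.3%). All 15 called regions were listed at 0 in FasSSL replicate 2, a value that 54 of the tested regions had in that library. They were short, 759 to 1647 bp, and weak, with 5.2 to 14.3 in the FasSSS libraries. On chromosome 14 (9150979 to 9152515), FasSSS libraries had 12.4 and 14.3, and FasSSL replicate 2 was listed at 0 (limma adjusted p = 0.00113). FasSSL replicate 1 had 19.4 there, above both FasSSS libraries, and FasLLL had 14.2 and 15.3. On chromosome 9 (121303083 to 121304138) the FasSSS libraries had 12.4 and 10.6 and replicate 1 had 11, and on chromosome 16 (29943869 to 29944815) 10.1, 11.9 and 9.4 (limma adjusted p = 0.00738 for each). The other leptin library thus held signal at FasSSS levels at these places. Over the 15 regions it had 7.8 to 30.0 and lay above both FasSSS libraries in 11. Over all 98529 regions this library, FasSSL replicate 1, lay above both in 44835 and below both in 40352. It is of the weakly enriched set. In the sparsest of 10 bins by signal per kb, its median log2 difference from the FasSSS mean was 0.31. The part of its weak enrichment in its signal at the 15 regions was not tested. None of the 15 was called with both replicates, and no region was called with replicate 2 alone when either FasSSS library was left out. This fit takes its spread from the FasSSS groups only, with 2 residual degrees of freedom before moderation, and with a lone leptin library.

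No region was higher at the threshold with replicate 2 alone. The smallest p among higher regions belonged to chromosome 17 (35108781 to 35111488), with 139.3 in FasSSL replicate 2 against 71.4 and 67.7, and 44.9 in replicate 1 (log2 0.99, SE 0.19, limma adjusted p = 0.128). The leptin replicates lay on opposite sides of the FasSSS libraries there. On chromosome 2 (124569971 to 124576349, 6379 bp), both leptin libraries were high, with 86.3 and 66.5 against 35.5 and 32.6, and FasLLL (69.2 and 49.6) and FedSSS (52.7 and 59.0) were above FasSSS as well. The log2 change with replicate 2 alone was 0.95 (SE 0.19, limma adjusted p = 0.174). On chromosome 1 (90156856 to 90162534) the values were 365.3 and 136.3 against 75 and 85.0, and on chromosome 13 (34090717 to 34095474) 121.7 and 342.7 against 245.6 and 234.4. The first of these was high in replicate 1 of FasLLL (274.8) and FedSSS (245.6) too, with 110.6 and 111.5 in their replicates 2. The GFPp libraries of the weakly enriched set thus stood highest there. Replicates 2 of FasSSL, FasLLL and FedSSS, outside that set, also lay above both FasSSS libraries. On chromosome 6 (146832720 to 146841758) the values were 195.9 and 320.8 against 230.1 and 229.9, on chromosome 10 (117065613 to 117067277) 43.0 and 48.2 against 28.1 and 15.5, and on another part of chromosome 1 (36358639 to 36367002) 211.6 and 235.9 against 180.1 and 159.1. In these last 2 both leptin libraries lay above both FasSSS libraries. Among strong regions, 200 or more in mean signal, the lower region with the smallest p was on chromosome 7 (133169375 to 133187001), with 188.1 in FasSSL replicate 2 against 269.6 and 295.0, while replicate 1 had 433.1. The log2 change was −0.58 with replicate 2 alone (limma adjusted p = 0.0986) and 0.02 with both.

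The median H3K27ac change of a class of regions differed with and without FasSSL replicate 1. With both replicates, H3K27ac regions that overlap an ATAC region had a median log2 change of −0.18 (n = 30011) and those without one 0.08 (n = 68518), against 0.01 over all. With replicate 2 alone the same medians were 0.02 and −0.02. Regions of 10 kb or more had 0.12 with both replicates and −0.03 with replicate 2 alone, and regions under 1 kb −0.16 and 0.04. At the 500 regions higher in GFPp, the change was −0.29 with both replicates and −0.04 with replicate 2 alone, and at the 500 lower in GFPp 0.56 and −0.04. Median signal at those lower regions was 80.2 in FasSSL replicate 1, 31.6 in replicate 2, and 30.8 and 35.9 in the FasSSS replicates. Replicates 1 of FedSSS and FasLLL, of the same weakly enriched set, had 47.1 and 54.3, against 36.15 and 37.6 in their replicates 2. In ATAC the median change was −0.02 in regions outside H3K27ac regions (n = 1283), −0.01 inside H3K27ac regions under 10 kb (n = 17913) and 0 inside those of 10 kb or more (n = 12162).

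Openness and acetylation were then set side by side, which is possible because the assays share no library. Of 30698 overlapping pairs of tested regions, 50.8% changed in the same direction with both H3K27ac replicates and 51.03% with replicate 2 alone. Spearman's rho across pairs was 0.02 and 0.05, as a description of regions that are not independent. Among pairs whose ATAC region was higher at an unadjusted p under 0.05, 56.51% were higher in H3K27ac with replicate 2 alone (n = 1099). Among those whose ATAC region was lower, 45.93% were (n = 934), and over all pairs 53.52%. With both replicates the same shares were 38.58%, 35.97% and 36.4%. Of the 16 named ATAC regions, 13 lay over a tested H3K27ac region. Around the chromosome 9 region, a 10275 bp H3K27ac region had 320.1 and 235.9 after leptin against 248.7 and 267.1, a log2 change of 0.09 with both replicates and −0.13 with replicate 2 alone. Around the chromosome 16 region, a 13664 bp one had 334.3 and 331.5 against 338.6 and 371.0 (log2 −0.09 and −0.10). Around the chromosome 6 region with 93.8 and 66.9 in FasSSS, a 5703 bp one had 164.9 and 379.5 against 380.7 and 360.5, so that FasSSL replicate 2 and the FasSSS libraries were alike and replicate 1 was low. Of the 16 H3K27ac regions named with both replicates, 1 overlapped a tested ATAC region: the chromosome 3 region, lower in H3K27ac, held an ATAC region with 18.9 and 20.4 after leptin against 15.5 and 6.1.

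The repeated-leptin mice share the FasSSS libraries, so their changes are given beside those of the single injection and not as separate support. In ATAC, FasLLL against FasSSS had 1 region called and 1861 (5.93%) at an unadjusted p under 0.05 with limma, and in H3K27ac 0 called (0%) and 2442 (2.48%). At the 8 ATAC regions higher after a single injection, with log2 changes of 1.29 to 3.48, repeated leptin had 0.67 to 3.22. At the 8 lower ones, with −2.54 to −0.88, it had −1.32 to −0.27. In 4 of the 8 higher and 5 of the 8 lower ones both FasLLL libraries lay between the FasSSS and the FasSSL libraries, and FedSSS libraries did so in 3 and 5. The named regions of both assays were chosen for FasSSL and FasSSS values that lie apart. That choice by itself favours other groups lying between them, so these counts only describe the regions. In H3K27ac repeated leptin had log2 changes of 0.8 to 2.01 at the 8 higher regions and −1.37 to 0.13 at the 8 lower ones, 7 of these with the same sign. On chromosome 6 (94213412 to 94215211) FasLLL had 37.9 and 35.7, above both FasSSS libraries (32.2 and 34.8). The FasLLL libraries lay between the FasSSS and the FasSSL libraries in 7 of the 8 higher H3K27ac regions and in 5 of the 8 lower, and FedSSS libraries in 5 and 3.

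The authors' deposited table for FasSSL against FasSSS in GFPp has no region at an FDR under 0.05 in either assay. It gives 794 ATAC regions (1.641% of 48374) with a raw p under 0.05, 458 higher and 336 lower, and a smallest FDR of 0.801. For H3K27ac it gives 1351 such regions (1.069% of 126368) with a smallest FDR of 1. The deposited table takes in regions below the signal minimum used here, so its counts and those above are over unlike sets. At the chromosome 9 and chromosome 5 ATAC regions it gives log2 fold changes of 2.78 and 3.38, with an FDR of 0.801 for both. For all 16 named ATAC regions the authors' deposited table has the sign found here and a raw p under 0.05. That table rests on the same libraries, and the regions were chosen here for a small p and groups that do not overlap. The shared signs and small p are therefore not separate support.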

How the data were processed

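Normalized signal per region and library was deposited by the authors in 1 table per assay, headed normalized counts per the file headers. The sources used here do not give the normalization. Low values fall on uneven steps within a library, so whole reads were not recovered and count models were left out. The authors' deposited tables also hold a variance-stabilized score, used in 1 alternative, and log2 fold changes, ratios (fold changes), raw p-values and FDR for the authors' own comparisons, quoted only as theirs. The build is mm9 per the submitters' processing notes. Without a step for each, the submitters' processing notes also list Bowtie 1.2, Bowtie2 2.2.6, STAR 2.5.2b, DESeq2 1.16.1, HTSeq 0.6.0, MACS2 and CASAVA 1.8.

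Regions with a mean signal of 10 or more over the 16 libraries of an assay were kept and taken to log2(signal + 1), a scale that understates changes of low regions. limma 3.58.1 (R 4.3.3) fitted 8 group means with an intensity trend, so that all groups share the spread (8 residual degrees of freedom). P-values are two-sided and Benjamini-Hochberg adjusted over all regions tested. Replicate 2 alone used the 10 H3K27ac libraries outside the weakly enriched set. Bins of signal and of signal per kb were set on the 12 libraries not compared, except the densest and sparsest 10% of regions, set on all 16. Sort regions came from limma on FedSSS and FasLLL with treatment and sort as terms. Overlaps needed 1 bp (GenomicRanges 1.54.1). Plots used matplotlib 3.10.9. Coordinates count from 1.

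Named regions were the 8 higher and 8 lower with the smallest p among those whose compared libraries do not overlap. Regions named for their strength had a mean of 50 (ATAC) or 200 (H3K27ac) or more. The comparison, the lists and the tests were chosen with earlier results of these data known. Gene and cell marker lists were not run, since no table of build mm9 was used here. The fit was tested on simulated data. Alternatives were the filter, pseudocounts of 0.1 and 5, quantile normalization, an adjusted p of 0.01, a replicate block, library weights, only the groups compared, the weakly enriched set as a term or left out, each library left out and, chosen after seeing the data, variance-stabilized values and a crossed block.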

Additional observations from a re-analysis of the deposited data

How the results depend on the processing

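Regions called in ATAC, 0 as reported, were 2 without the signal filter, 2 with a pseudocount of 0.1, 2 with 5 and 2 with variance-stabilized values, and 0 to 331 when each library was left out. The other settings without a block gave 0. For H3K27ac the count was 15 with only the 10 libraries outside the weakly enriched set, 0 to 1 when each library was left out, and 0 otherwise. With FasSSL replicate 2 alone, where 15 were called, there were 0 without the filter, 0 with the filter set on the libraries compared, 28 with a pseudocount of 0.1, 0 with 5, 1 after quantile normalization, 3 at an adjusted p of 0.01, 0 with 15 libraries in the fit and 0 to 0 when each FasSSS library was left out. The difference between sorts in ATAC gave 2 without the filter and 0 to 148 when each library was left out, and in H3K27ac 1 with the 10 libraries. The cause of these shifts was not tested. The labels do not say that replicate numbers pair libraries. Between the compared groups, the correlation of same-numbered deviations was 0.166 in ATAC and −0.205 in H3K27ac. It was over 0.1 in 21 of the 28 pairs of groups in ATAC and in 15 of 28 in H3K27ac, where it ran from −0.205 to 0.634. A replicate block called 4 ATAC regions, all among the 8 named as higher (chromosomes 9, 6, 5 and 1, limma adjusted p 0.00348 to 0.0221), and 0 for H3K27ac and for both differences between sorts, and crossing the FasSSS numbers called 0 in H3K27ac. Signal is not a count, so depth is unknown.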

Other observations

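Within a library the low signal values followed a power of their step number rather than a constant step. In H3K27ac the power was 1.04 in FasSSL replicate 1 and 0.78, 0.75 and 0.82 in FasSSL replicate 2 and FasSSS replicates 1 and 2 (R squared 0.992 to 0.998). In ATAC it was 0.87, 0.93, 0.91 and 0.90. A given ratio of signal therefore need not stand for the same ratio of reads in 2 libraries.

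The authors' deposited log2 fold changes ranked ATAC regions much as the log2 ratio of the deposited mean signals did (Spearman's rho 0.97 across regions, which are not independent). For H3K27ac rho was 0.75.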
